A study of Mus musculus with 6 samples.

Results

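The effector programme of regulatory T (Treg) cells was followed through 10 genes in cells that overexpress miR-27: the cytokine gene Il10, the IL-35 chain genes Ebi3 and Il12a, and the regulators Prdm1, Maf, Irf4, Batf, Bhlhe40, Nfil3 and Id2. They were taken by symbol from the deposited expression table, 1 transcript per gene (the one with the highest mean level over all libraries), and all 10 were found among 24453 gene symbols. Healthy female C57BL/6 mice gave sorted CD4+Foxp3+ cells for total RNA sequencing in 2 groups of 3 libraries, a miR-27 transgenic group (miR-27 Tg) and a control group (WT). For the controls the genotype is written as WT Tg, without further explanation. The series title adds Foxp3cre het, and the design text places the miR-27a overexpression in Treg cells alone. Foxp3 lies on the X chromosome, so that in a heterozygous female only part of the Treg cells use a Cre-bearing Foxp3 allele. The labels do not say whether the sort was limited to cells that carried Cre, nor do they give the ages of the mice or tie each library to its own mouse. The p-values therefore set the difference between the groups against how far libraries vary within a group, and that variation may be technical.

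Treg cells hold back other immune cells. Those that have met antigen take on an effector state in which they secrete IL-10, an anti-inflammatory cytokine, and in mice IL-35, a dimer of the EBI3 and p35 (Il12a) chains. EBI3 also pairs with p28 (Il27) to form IL-27, and p35 with p40 (Il12b) to form IL-12. BATF and IRF4 bind DNA together early in this programme, Blimp-1 (Prdm1) and c-Maf are known to promote Il10 in T cells, and BHLHE40, NFIL3 and ID2 modulate the state of the cell. A microRNA recognises its target transcripts mainly by its seed, bases 2 to 8, which pairs with short sites in 3′ UTRs and lowers their output.

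The sequences that define a possible direct contact with miR-27 are shown first, because 8 of the 10 genes hold no seed match. Both mature miR-27 forms carry the same seed, given in capitals (RefSeq, GRCm38.p6; chromosome 8, 84208727 to 84208747 for miR-27a-3p and chromosome 13, 63300760 to 63300780 for miR-27b-3p, both on the plus strand).
mmu-miR-27a-3p: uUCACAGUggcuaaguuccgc
mmu-miR-27b-3p: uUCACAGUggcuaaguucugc
The complementary ACTGTGA was searched on the transcript strand in the longest annotated 3′ UTR of each gene (GENCODE M21, GRCm38). It was present once in Irf4 and once in Id2, in both cases within the genomic span of the transcript that was counted. Whether it lies in an exon of that transcript was not checked. The Irf4 match begins at base 208 of a 3′ UTR of 3309 bases (chromosome 13, 30763863 to 30763887 for the bases shown, plus strand). The Id2 match begins at base 199 of 785 bases (chromosome 12, 25094373 to 25094397, minus strand). Capitals mark the match.
Irf4: ccctggcttataACTGTGAaacttg
Id2: tctccggcctggACTGTGAtaccgt
In Irf4 the match is followed by A, the base that faces the first base of a microRNA in the longest class of seed site, and in Id2 it is not. No match was found in the 3′ UTRs of Il10 (706 bases), Ebi3 (245), Il12a (497), Prdm1 (2490), Maf (4316), Batf (335), Bhlhe40 (1593) or Nfil3 (269). The share of members with a match was 20.0%, against 16.7% of the 11817 tested genes with an annotated 3′ UTR (1976 genes). A match is a description of the sequence and was not tested as a binding site, and the search covers only these 7 letters.

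About 38100000, 34400000 and 34400000 reads were counted in miR-27 Tg replicates 1 to 3 and 42100000, 39300000 and 37700000 in WT replicates 1 to 3. All levels are RPKM, here reads per kilobase of exon and per 10000000 counted reads. Mir27a, the targeted hairpin, had 8919, 7448 and 7898 RPKM in miR-27 Tg and 24.9, 38.4 and 24.7 RPKM in WT, so each library matched its label. Among the markers of Treg cells, Foxp3 had 955, 774 and 777 RPKM in miR-27 Tg and 830, 662 and 801 RPKM in WT, with overlapping groups, and 3 of the 6 Treg markers had a fold change above 0. Their sum was 8171 to 8453 RPKM in miR-27 Tg and 8935 to 9851 RPKM in WT. Without Ctla4, which also belongs to the effector surface genes described later, it was 5733 to 6130 RPKM in miR-27 Tg and 5811 to 6080 RPKM in WT, with overlap. That sum joins differences in both directions. Cd4 had 2117 to 2293 RPKM in miR-27 Tg and 1864 to 2034 RPKM in WT (log2 fold change 0.18, limma adjusted p = 0.460). Ikzf2 had a log2 fold change of -0.51 (limma adjusted p = 0.290), with overlapping groups.

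None of the 9 members that could be tested passed limma's test at an adjusted p of 0.05 (Benjamini-Hochberg over 13621 genes), 0 higher and 0 lower, while 0.653% of all genes tested were lower and 0.374% higher in miR-27 Tg. All 9 log2 fold changes, taken as miR-27 Tg minus WT on log2(RPKM + 1), were below 0, with a median of -0.59 against -0.01 for all genes tested. Of all 13621 genes tested 7208 were below 0, and the members were chosen with earlier results of these data known. At an unadjusted p under 0.05 there were 5 members, Il10, Maf, Prdm1, Bhlhe40 and Nfil3, all lower in miR-27 Tg, against 8.43% of all genes tested in that direction. In 4 of the 9 (Il10, Prdm1, Maf and Bhlhe40) every miR-27 Tg library stood below every WT library, a pattern that 11.6% of all genes tested showed. In bulk RNA, fewer cells in the effector state and less RNA of these genes per cell cannot be told apart.

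**Figure D1:**
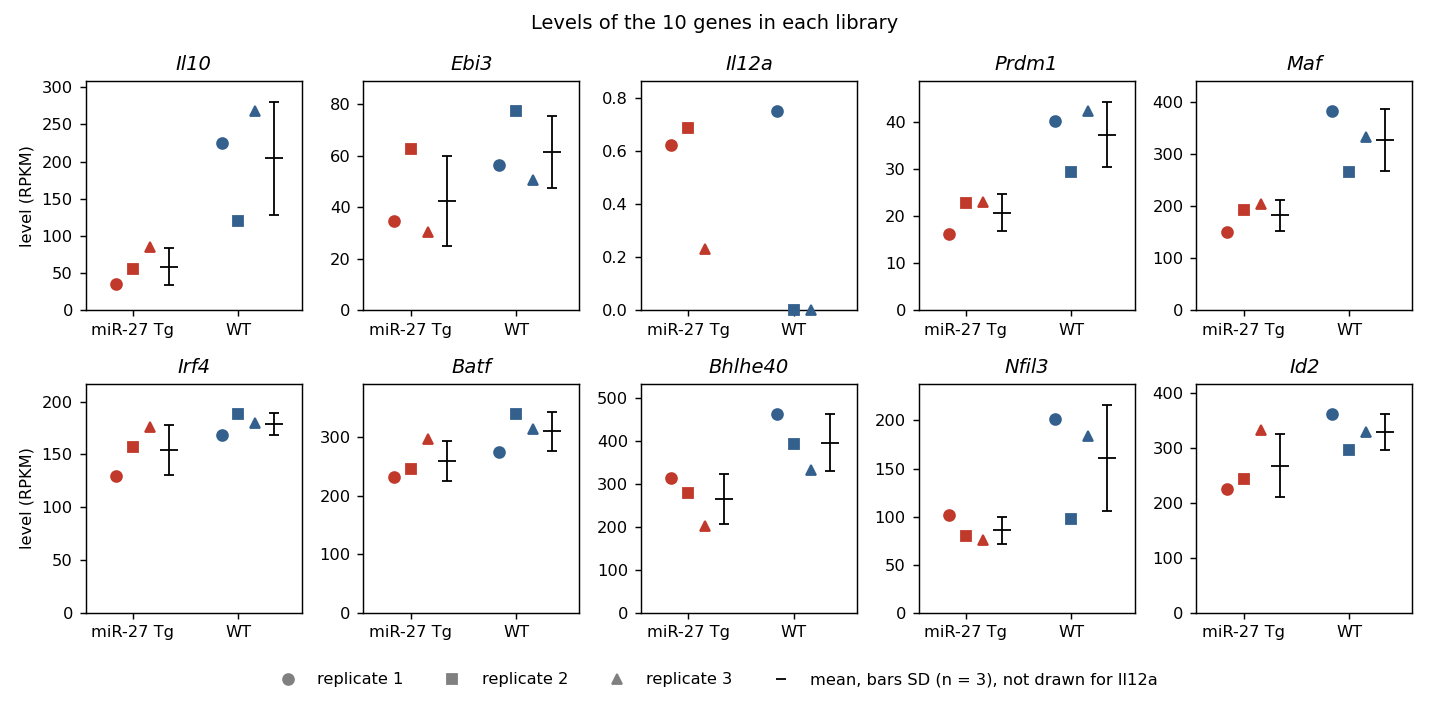
Level of each of the 10 genes in RPKM (linear axes from 0) in the miR-27 Tg and WT libraries; symbols mark replicates 1 to 3, and bars the mean and SD of 3 libraries (not drawn for Il12a). The groups are apart for Il10, Prdm1, Maf and Bhlhe40, and overlap for Ebi3, Irf4, Batf, Nfil3 and Id2.

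Il10 (NM_010548, mm10 chromosome 1, 131019845 to 131024970, plus strand) showed the largest difference of the 9. It had 35.2, 55.9 and 84.9 RPKM in miR-27 Tg replicates 1 to 3, from 174, 250 and 380 reads, against 225, 120 and 268 RPKM in WT replicates 1 to 3, from 1228, 614 and 1312 reads. The groups did not overlap, but the gap between the highest miR-27 Tg library and the lowest WT library was smaller than the range within WT. The mean was 58.7 ± 25.0 RPKM in miR-27 Tg, 28.7% of the 204 ± 76.0 RPKM in WT (SD, n = 3 each). The log2 fold change was -1.79 (SE 0.36, 95% interval -2.63 to -0.95, limma adjusted p = 0.0759), and 0.334% of all genes tested had a fold change as low or lower. Within a group the highest library exceeded the lowest 2.42-fold in miR-27 Tg and 2.23-fold in WT, the widest spread of the 9 genes in both groups. Without WT replicate 2, whose Il10 level was the lowest of its group, the gene passed (-2.13, limma adjusted p = 0.0493). In the other 5 fits that left out 1 library it did not pass (adjusted p of up to 0.213).

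Ebi3 (NM_015766, chromosome 17, 55952623 to 55957022, plus strand), the IL-35 and IL-27 chain, had 34.5, 62.4 and 30.4 RPKM in miR-27 Tg and 56.2, 77.3 and 50.6 RPKM in WT. The groups overlapped through miR-27 Tg replicate 2, which lay above 2 of the 3 WT libraries. The means were 42.4 ± 17.4 RPKM in miR-27 Tg and 61.4 ± 14.1 RPKM in WT (log2 fold change -0.57, 95% interval -1.20 to 0.06, limma adjusted p = 0.440). The value depended on single libraries in both directions: it was -0.88 without miR-27 Tg replicate 2 (limma adjusted p = 0.137), -0.37 without miR-27 Tg replicate 3 (adjusted p = 0.693) and -0.39 without WT replicate 2 (adjusted p = 0.718). The annotated antisense gene Gm16712 shares 23.4% of the exonic bases of Ebi3, and reads of both strands were counted together.

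Il12a (NM_008351, chromosome 3, 68691424 to 68698550, plus strand), the p35 chain, was close to the detection limit. It had 3, 3 and 1 reads in miR-27 Tg (0.622, 0.688 and 0.229 RPKM) and 4, 0 and 0 reads in WT (0.751, 0 and 0 RPKM). A count of 0 allows up to 3 reads, which on this transcript is 0.564 to 0.688 RPKM depending on the library, for counting error alone. Its mean was under the minimum of 1 RPKM set for testing, so that no difference between the groups was detectable at this depth. The second Il12a transcript, NM_001159424, had the same numbers of reads in each library. The alternative partner chains were as scarce: Il12b had 4, 8 and 1 reads in miR-27 Tg and 0, 1 and 2 in WT, and Il27 had 0, 2 and 2 reads in miR-27 Tg and 2, 0 and 1 in WT. Of the chains that can pair in IL-35, IL-27 and IL-12, Ebi3 alone was thus measured at more than a few reads, with 153, 250 and 122 reads in miR-27 Tg and 275, 354 and 222 in WT.

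Maf and Prdm1, the factors known to promote Il10 in T cells, differed by similar amounts. Maf (NM_001025577, chromosome 8, 115703253 to 115706894, minus strand) had 149, 193 and 205 RPKM in miR-27 Tg and 383, 265 and 334 RPKM in WT, with no overlap. Its mean of 182 ± 29.2 RPKM in miR-27 Tg was 55.7% of the 327 ± 59.3 RPKM in WT (log2 fold change -0.84, SE 0.16, 95% interval -1.22 to -0.46, limma adjusted p = 0.0673). The antisense gene Gm15655 covers 6.92% of its exonic bases. Prdm1 (NM_007548, chromosome 10, 44437174 to 44458748, minus strand) had 16.2, 22.9 and 23.1 RPKM in miR-27 Tg and 40.2, 29.4 and 42.3 RPKM in WT, also without overlap. It averaged 20.7 ± 3.93 RPKM in miR-27 Tg, 55.5% of the 37.3 ± 6.94 RPKM in WT (log2 fold change -0.82, SE 0.20, 95% interval -1.27 to -0.37, limma adjusted p = 0.118). Of all genes tested, 2.82% lay as low as Maf and 2.90% as low as Prdm1.

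Irf4 and Batf, which act as a pair at composite DNA elements, stood close to their WT levels. Irf4 (NM_013674, chromosome 13, 30749258 to 30766927, plus strand), which holds a seed match, had 129, 157 and 176 RPKM in miR-27 Tg and 169, 189 and 180 RPKM in WT. Only miR-27 Tg replicate 3 lay within the WT range, and the mean of 154 ± 23.5 RPKM in miR-27 Tg was 86.1% of the 179 ± 10.1 RPKM in WT. The log2 fold change was -0.22 (95% interval -0.51 to 0.06, limma adjusted p = 0.527). Leaving out miR-27 Tg replicate 1 brought it to -0.10 (limma adjusted p = 0.868). Batf (NM_016767, chromosome 12, 85686720 to 85709087, plus strand) had 232, 246 and 297 RPKM in miR-27 Tg and 275, 340 and 314 RPKM in WT. Here too replicate 3 of miR-27 Tg lay within the WT range (log2 fold change -0.26, 95% interval -0.55 to 0.02, limma adjusted p = 0.430). Neither p shows that the groups were equal, since the intervals reach down to -0.51 and -0.55 on the log2 scale.

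Bhlhe40 and Nfil3 are transcriptional repressors that are also part of the circadian feedback network. Bhlhe40 (NM_011498, chromosome 6, 108660629 to 108666925, plus strand), which in mouse helper T cells is known to restrain Il10, had 314, 279 and 201 RPKM in miR-27 Tg and 463, 391 and 332 RPKM in WT. The groups did not overlap, although miR-27 Tg replicate 1 came close to WT replicate 3. Its mean was 265 ± 57.7 RPKM in miR-27 Tg and 395 ± 65.5 RPKM in WT (log2 fold change -0.59, SE 0.18, 95% interval -1.01 to -0.17, limma adjusted p = 0.214). Nfil3 (NM_017373, chromosome 13, 52967209 to 52981039, minus strand) had 102, 80.2 and 75.5 RPKM in miR-27 Tg and 201, 97.6 and 184 RPKM in WT. WT replicate 2 was at the level of the miR-27 Tg libraries, well below the other two WT libraries. The means were 85.8 ± 13.9 RPKM in miR-27 Tg and 161 ± 55.6 RPKM in WT (log2 fold change -0.84, 95% interval -1.45 to -0.24, limma adjusted p = 0.214). Without WT replicate 2 Nfil3 passed, at -1.17 (limma adjusted p = 0.0305). In every other fit that left out 1 library it did not pass (limma adjusted p of 0.230 to 0.446).

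Id2 (NM_010496, chromosome 12, 25093799 to 25096092, minus strand), an inhibitor of E-protein transcription factors that favours effector over memory states in T cells, is the other gene with a seed match. It had 226, 244 and 333 RPKM in miR-27 Tg and 363, 297 and 330 RPKM in WT. Replicates 1 and 2 of miR-27 Tg stood below all WT libraries, and replicate 3 lay among them (log2 fold change -0.32, 95% interval -0.67 to 0.04, limma adjusted p = 0.444). Leaving out that replicate gave -0.48 (limma adjusted p = 0.184), and leaving out miR-27 Tg replicate 1 gave -0.21 (limma adjusted p = 0.759). In the fit of all libraries the members with a seed match, Irf4 and Id2, had the smallest and the third smallest difference in size of the 9. Both intervals include 0, and the part of the matches in these values was not tested.

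**Figure D2:**
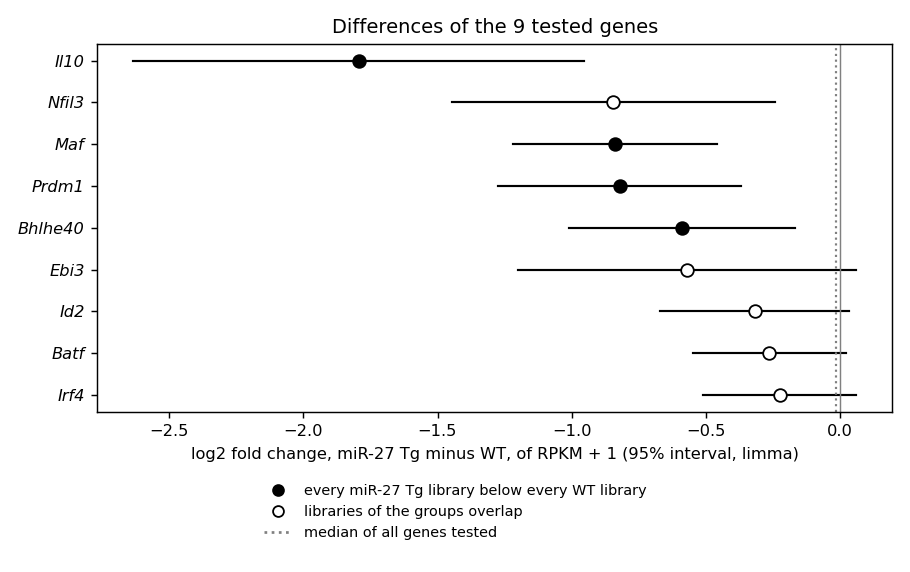
Log2 fold change of the 9 tested genes, miR-27 Tg minus WT, with 95% intervals from limma; filled points are genes whose groups did not overlap, and the dotted line is the median of all genes tested. Il10 lies farthest from 0, at -1.79, and the intervals of Ebi3, Id2, Batf and Irf4 include 0.

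Levels per kilobase placed the genes in a similar order in both groups. In miR-27 Tg the order was Id2, Bhlhe40, Batf, Maf, Irf4, Nfil3, Il10, Ebi3, Prdm1 and Il12a, and in WT it was Bhlhe40, Id2, Maf, Batf, Il10, Irf4, Nfil3, Ebi3, Prdm1 and Il12a. In miR-27 Tg the libraries of neighbours overlapped among Id2, Bhlhe40 and Batf, between Maf and Irf4, and among Nfil3, Il10 and Ebi3. In WT they overlapped among Bhlhe40, Id2, Maf and Batf and among Il10, Irf4 and Nfil3. Il10 stood above 48.3% of all genes tested in miR-27 Tg and above 80.6% in WT, whereas Batf stood above 85.6% in miR-27 Tg and 88.6% in WT.

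Ratios of Il10 to other members set its difference beside theirs. The ratio of Il10 to Maf was 0.235, 0.290 and 0.414 in miR-27 Tg and 0.587, 0.453 and 0.804 in WT, with no overlap. The ratio to Irf4 was 0.272, 0.355 and 0.483 in miR-27 Tg and 1.33, 0.637 and 1.49 in WT, again apart. Il10 was therefore more abundant than Irf4 per kilobase in 0 of the 3 miR-27 Tg libraries and in 2 of the 3 WT libraries. Of 8 such ratios 5 did not overlap between the groups (to Prdm1, Maf, Irf4, Batf and Id2), each lower in miR-27 Tg with p = 0.1 by an exact two-sided permutation test (adjusted p = 0.16 over the 8), and 0.1 is the smallest p that 3 against 3 libraries allow. The ratios to Ebi3, Bhlhe40 and Nfil3 overlapped (exact permutation p = 0.2 and adjusted p = 0.2 for each). All 8 ratios share the same Il10 levels and are not independent. Because Il10 had the largest fall of the tested members, a lower mean log2 ratio in miR-27 Tg follows for each of them. With 0.1 as the smallest p, the test could not decide whether Il10 fell more than the other members. The share of non-overlapping ratios among other genes was not determined.

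The libraries of a group did not order the genes alike. In miR-27 Tg, replicate 1 was the lowest of its group for 6 of the 9 genes (Il10, Prdm1, Maf, Irf4, Batf and Id2) and the highest for Bhlhe40 and Nfil3. Replicate 3 was the highest for 6 genes, the same Il10, Prdm1, Maf, Irf4, Batf and Id2, and the lowest for Ebi3, Bhlhe40 and Nfil3. In WT, replicate 2 was the lowest for Il10, Prdm1, Maf, Nfil3 and Id2 and the highest for Ebi3, Irf4 and Batf. The AP-1 gene Jun, which is induced early in activated cells, set the same WT library apart, with 3030, 1635 and 3197 RPKM in WT replicates 1 to 3, against 1600, 1676 and 1614 RPKM in miR-27 Tg. The related genes Junb and Jund were also lowest in WT replicate 2, at 5217 and 758 RPKM. All their miR-27 Tg libraries stood above that library. The part of Jun in the values of Il10 and Nfil3 was not tested.

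**Figure D3:**
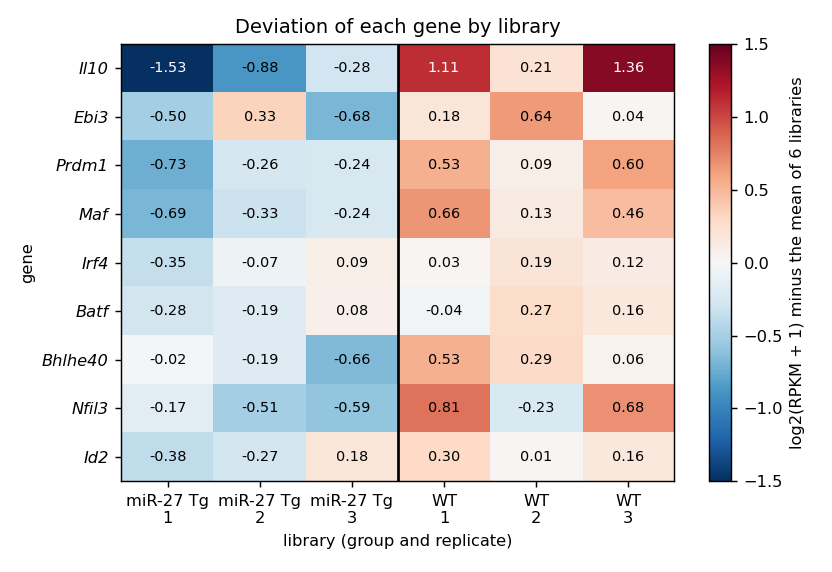
Deviation of the 9 tested genes in each library from their mean over the 6 libraries, on log2(RPKM + 1); red is above and blue below the mean, and the line parts miR-27 Tg from WT. Il10 runs from -1.53 in miR-27 Tg replicate 1 to 1.36 in WT replicate 3, while Irf4 and Batf stay between -0.35 and 0.27.

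The partner chains, receptors and signal carriers of IL-10 and IL-35 held no called gene. Of 14 genes in that list 12 could be tested, and by limma 0 rose and 0 fell. The unadjusted p was under 0.05 for 2 of the 12, against 13.0% of all genes tested in either direction, and the list's median log2 fold change was -0.04. Il10ra, the ligand-binding chain of the IL-10 receptor, had 204 ± 38.1 RPKM in miR-27 Tg and 228 ± 18.8 RPKM in WT (log2 fold change -0.18, limma adjusted p = 0.681). Il6st, the gp130 chain that IL-35 and IL-27 receptors share, had 550 ± 56.0 RPKM in miR-27 Tg and 611 ± 77.3 RPKM in WT (-0.15, limma adjusted p = 0.674). Stat4, which signals below IL-12 and IL-35 receptors, had 283, 305 and 335 RPKM in miR-27 Tg and 376, 394 and 342 RPKM in WT (-0.27, limma adjusted p = 0.290), and the annotated transcript Gm28177 shares 38.8% of its exonic bases. Il12rb2, a chain of the IL-12 and IL-35 receptors, had 5.43, 6.46 and 6.61 RPKM in miR-27 Tg and 2.64, 4.17 and 2.95 RPKM in WT, the single gene of the list above WT in every library (0.76, limma adjusted p = 0.178), but Serbp1 shares 58.4% of its exonic bases.

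Partners and relatives of the 7 factors held none either. Of 21 genes 19 were tested, and by limma 0 rose and 0 fell. Here 2 of the 19 were at an unadjusted p under 0.05, again beside 13.0% of all genes tested. The list median was 0.09, and -0.002 to 0.19 when single libraries were left out. Among those with the largest differences, Hlf, a relative of Nfil3, had 2.44 ± 0.646 RPKM in miR-27 Tg and 5.18 ± 1.97 RPKM in WT (log2 fold change -0.81, limma adjusted p = 0.303). Tcf4, an E-protein gene that plasmacytoid dendritic cells also use, had 25.4 ± 17.1 RPKM in miR-27 Tg and 12.8 ± 5.58 RPKM in WT (0.80, limma adjusted p = 0.566), and Jun had a log2 fold change of -0.62 (limma adjusted p = 0.306). Jun passed without WT replicate 2 (-0.93, limma adjusted p = 0.0225), and in no other fit that left out 1 library.

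Surface and secreted genes of effector Treg cells were the one related list with called genes. Of its 24 genes, all tested, 5 fell and 0 rose by limma, against 0.653% lower and 0.374% higher of all genes tested. At an unadjusted p under 0.05 there were 18, each with a fold change below 0, against 8.43% of all genes tested in that direction. The list's median of -0.55 was close to that of the members. Both lists were chosen with earlier results of these data known, so these counts and medians are descriptions only. Those that fell were Itgae, the CD103 integrin chain (log2 fold change -2.05, limma adjusted p = 0.00534), Gzmb, granzyme B (-2.02, adjusted p = 0.0395), Tigit, a co-inhibitory receptor (-1.39, adjusted p = 0.0177), Ccr8, a chemokine receptor (-1.23, adjusted p = 0.0257), and Areg, the growth factor amphiregulin (-1.07, adjusted p = 0.0257). The fold change of Il10 lay between those of Gzmb and Tigit, and its SE of 0.36 was more than 2 times the 0.16 of Tigit. Itgae alone passed in all 6 fits that left out 1 library, and between 1 and 5 of the 5 passed in them, with 1 each without WT replicate 1, WT replicate 3 or miR-27 Tg replicate 3, and 3 each without miR-27 Tg replicate 1 or 2.

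**Figure D4:**
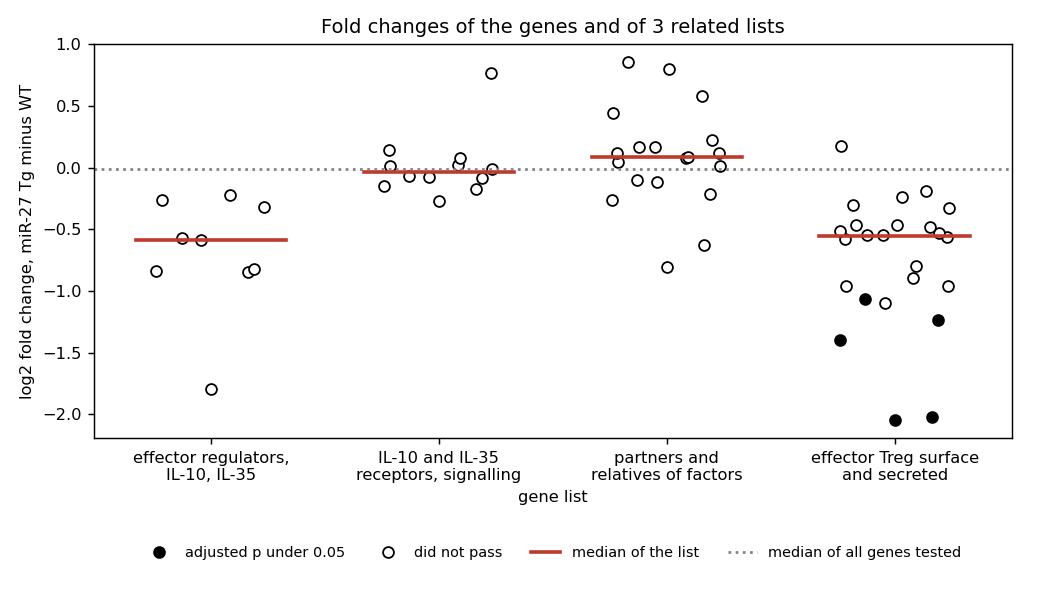
Log2 fold changes, miR-27 Tg minus WT, of the 9 tested members and of the tested genes of 3 related lists; filled points passed limma at an adjusted p of 0.05, red lines are list medians, and the dotted line is the median of all genes tested. The 9 members all lie below 0 (median -0.59), as do 23 of the 24 effector surface genes (median -0.55), and the other lists have medians of -0.04 and 0.09. Of all 13621 genes tested 7208 lie below 0.

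Several of these genes are also used by other cells, namely Prdm1 and Irf4 by plasma cells, Ebi3, Il10 and Maf by myeloid and dendritic cells, and Id2 and Nfil3 by NK cells. Of 11 tested myeloid markers 10 had a fold change above 0 and Itgam passed, and the summed level of all 12 was 449 to 1087 RPKM in miR-27 Tg and 248 to 469 RPKM in WT. The 8 dendritic cell markers summed to 217, 1176 and 555 RPKM in miR-27 Tg replicates 1 to 3 and to 117, 283 and 480 RPKM in WT, so that miR-27 Tg replicate 2, the library with the highest Ebi3 of its group, also had the highest sum of dendritic cell markers. In WT the order was another one: replicate 2 had the highest Ebi3 with a dendritic sum of 283 RPKM, and replicate 3 the lowest Ebi3 with the highest sum, 480 RPKM. Plasma cell markers summed to 520 to 661 RPKM in miR-27 Tg and 492 to 536 RPKM in WT. Xbp1 and Txndc5 made up most of that sum in each library. Of the 6 plasma cell markers tested 4 had a fold change above 0. B cell markers summed to 93.9 to 140 RPKM in miR-27 Tg and 124 to 146 RPKM in WT. CD8 T and NK cell markers summed to 165 to 275 RPKM in miR-27 Tg and 206 to 258 RPKM in WT. This sum, too, joins differences in both directions. Nkg7 and Xcl1 were called lower in miR-27 Tg (log2 fold change -0.93 and -1.41, limma adjusted p = 0.0257 and 0.0238). Cd8b1 stood above WT in every miR-27 Tg library (0.72, limma adjusted p = 0.258), and 2 of the 6 tested were above 0. No marker was at 0 in all libraries, and Cd14, Xcr1, Ebf1, Tnfrsf17 and Ncr1 were under 1 RPKM on average. The part of these cells in the values of the members was not tested. Without miR-27 Tg replicate 2 the median of the 9 members was -0.80, against -0.59 with all libraries. Il10 hardly moved, with a log2 fold change of -1.80 (limma adjusted p = 0.154) against -1.79. Of the 9 members Ebi3 moved most, from -0.57 to -0.88.

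**Figure D5:**
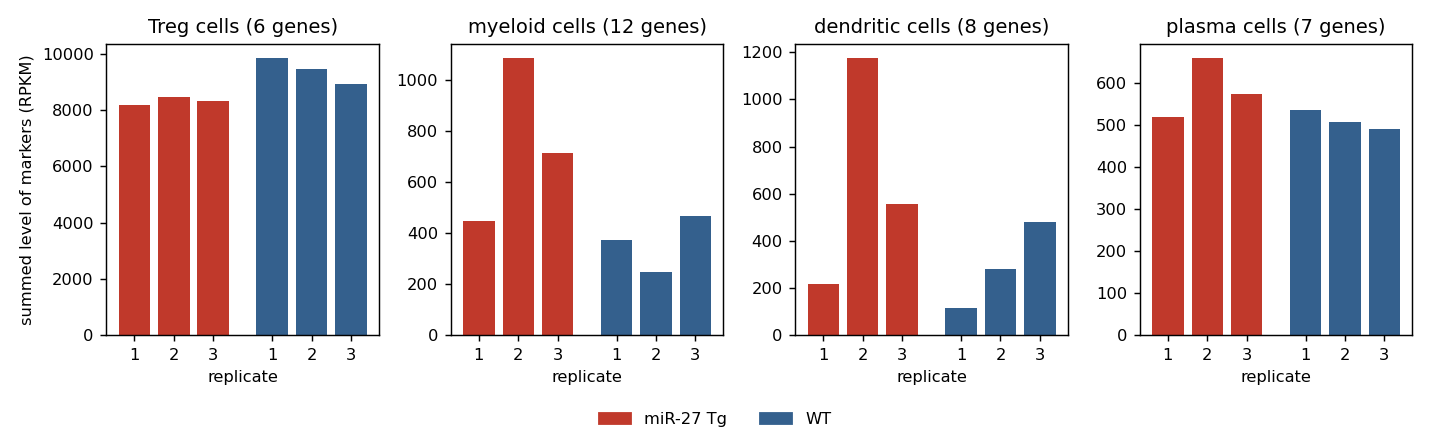
Summed level in RPKM of the markers of Treg, myeloid, dendritic and plasma cells in each library (bars start at 0; axes differ between panels). Replicate 2 of miR-27 Tg has the highest myeloid and dendritic sums, 1087 and 1176 RPKM.

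Promoter sequences (RefSeq, GRCm38.p6, 250 bases before to 50 after the start) were at hand for Ebi3, Il12a (with 2 starts), Prdm1, Irf4, Batf, Nfil3 and Id2, and not for Il10, Maf and Bhlhe40. They were searched on both strands for motifs of the factors studied here. The AP-1 motif TGANTCA, which BATF binds with JUN partners, was in 1 of the 8 member promoters and in 7.81% of 32851 promoters. The Blimp-1 motif core GAAAGTG was in 2 (a promoter of Il12a and that of Irf4) and in 4.81% of all. The interferon-response motif, a pair of GAAA cores 2 bases apart (3.44% of all), the E-box CACGTG bound by BHLHE40 (7.15%) and the NFIL3 motif TTANGTAA (2.32%) were in 0 of the 8. No 2 of these matches overlapped. The Prdm1 promoter is shown because it belongs to a gene with non-overlapping groups and holds the AP-1 match, in capitals, which starts 48 bases before the transcription start (chromosome 10, 44458699 to 44458998, minus strand, written 5′ to 3′).
Prdm1: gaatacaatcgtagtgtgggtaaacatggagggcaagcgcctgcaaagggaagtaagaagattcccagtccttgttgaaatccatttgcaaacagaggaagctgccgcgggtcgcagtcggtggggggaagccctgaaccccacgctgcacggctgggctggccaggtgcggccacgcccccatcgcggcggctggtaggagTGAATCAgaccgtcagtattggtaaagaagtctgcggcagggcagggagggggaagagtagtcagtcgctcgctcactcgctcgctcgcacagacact
No binding was measured in these samples.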

How the data were processed

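Expression was measured by RNA sequencing in 6 libraries. Per the submitters' processing notes the tools were STAR 2.2.0c and HOMER, and the builds mm10 and GRCm38. The authors deposited RPKM values that HOMER made from exonic reads of mm10 RefSeq transcripts on both strands, scaled to 10000000 reads per library, per the file headers. Depth was recovered from low values, which were whole multiples of 1 read (within 0.1 read) in 100% of cases on transcripts of 200 to 4000 bases.

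From these, 1 transcript per symbol (highest mean) was kept, and 13621 genes passed a minimum mean of 1 RPKM. Their log2(RPKM + 1) values were fitted in limma 3.58.1 and R 4.3.3 (intensity trend, two-sided, Benjamini-Hochberg over these genes, threshold 0.05). The scripts were tested on simulated data. Fold changes on this scale understate those of low genes. Cell markers, overlapping genes, Mir27a, Il12b, Il27, Junb and Jund are named for context. Other genes outside the members are named where they passed, or else as the 4 of a list with the largest fold change. One gene this rule picks is not reported here. Members and lists were chosen with earlier results of these data known. Pseudocount, filter, trend, scaling, transcript choice, replicate block and each library were varied.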

Additional observations from a re-analysis of the deposited data

How the results depend on the processing

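All 9 tested members kept a fold change below 0 in all 13 alternatives. Of these, no filter, no trend, the longest transcript and the replicate block left the members' fold changes as they were. Only the other alternatives could thus have changed a sign. With no filter 15 genes passed as higher in miR-27 Tg and 32 as lower, against 51 and 89, and 2 effector surface genes were lower against 5. With single libraries left out, 3 to 20 genes were higher and 2 to 47 lower, 1 to 5 effector surface genes, 0 to 2 members and 0 to 1 partner genes (Jun) were lower. In these fits the log2 fold change was -2.13 to -1.48 for Il10 and -1.17 to -0.65 for Nfil3, the median of the members was -0.80 to -0.48 and that of the receptor and signalling list -0.063 to 0.010. The labels do not say whether equal replicate numbers mark a shared source. The correlations of deviations across genes between same-numbered libraries were 0.368, 0.0971 and 0.0368. The value for replicates 1 was the highest of all pairs, whereas libraries 2 and 3 of each group correlated better with another number. With the replicate block in limma 91 genes were higher and 185 lower, and 2 members were lower, Il10 (-1.79, adjusted p = 0.0297) and Bhlhe40 (-0.59, adjusted p = 0.0293). With 3 libraries a group the intervals of Ebi3, Irf4, Batf and Id2 include both 0 and a reduction.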
